A study of Homo sapiens with 18 samples.

Results

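The metallothionein genes of chromosome 16 were followed in RNA-seq libraries of 2 bladder cancer (BLCA) cell lines. The 6 genes MT2A, MT1X, MT1E, MT1F, MT1G and MT1M were taken by gene symbol from the 39496 genes of the deposited tables, and all 6 had a row. After a filter on low counts, 5 of the 6 remained among the 20144 genes tested, and MT1G did not pass. MT1E, MT1F and MT1M passed through the T24 libraries alone. The filter thus selected them for their T24 reads, and a test between the cell lines adds no independent support.

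The 18 libraries came from UM-UC-3 and T24, both established human transitional cell carcinoma lines labelled as WT, and had received either siNC, a non-targeting control, or siACAT1-1 or siACAT1-2, which target the mitochondrial acetyl-CoA acetyltransferase ACAT1. Each of the 6 groups held 3 libraries, which the labels number as biological replicates 1 to 3, and the design text calls them independent experiments. The knockdown was transient and each line stands for a single tumour, so the comparison of the lines has n = 1 tumour per side. ACAT1 itself was at 46.0 ± 1.68 RPKM (SD, n = 3) in UM-UC-3 cells and 16.2 ± 1.40 RPKM in T24 cells with siNC, where RPKM is the read count scaled to exon length and to the counted reads of the library, and its highest value in any knockdown library was 3.59 RPKM. Its log2 fold change was -4.09 over the 4 comparisons with siNC (SE 0.12, edgeR adjusted p = 2.1e-12).

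Libraries held 25163490 to 34417230 counted reads. Of 20 urothelial and epithelial markers, 19 had a row, and 3 reached a mean of 1 RPKM in UM-UC-3 cells (KRT7, KRT8 and KRT18) and 7 in T24 cells (KRT7, KRT8, KRT18, KRT19, PPARG, FOXA1 and EPCAM). None of the uroplakins, which define differentiated urothelium, reached that level in either line. Markers of leukocytes, endothelium, fibroblasts and smooth muscle summed to 0.218 to 0.473 RPKM per library over 8 genes, and none of the 8 reached a mean of 1 RPKM.

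Metallothioneins are small, cysteine-rich proteins that bind zinc and copper and also sequester toxic metals such as cadmium. Their genes stand side by side in a cluster, and zinc acts on them through the transcription factor MTF1, which binds short metal response elements (MREs) in their promoters. Glucocorticoids and oxidative stress are further known inducers, and the levels of the isoforms in bladder and other epithelia differ widely.

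The 6 genes lay within 75998 bases of chromosome 16 on GRCh38, in the order MT2A (chr16:56608199-56609497), MT1E (chr16:56625475-56627112), MT1M (chr16:56632233-56633986), MT1F (chr16:56657694-56660698), MT1G (chr16:56666731-56668065) and MT1X (chr16:56682424-56684196). MT1G was on the minus strand and the others on the plus strand. These spans and exons are those of the deposited tables, in which the exons of a gene sum to between 750 bases (MT1G) and 1889 bases (MT1F). The canonical transcripts of GENCODE release 44 are shorter, from 398 bases (MT1M) to 746 bases (MT1E). For MT1F the ratio of the 2 lengths was 4.44 and for MT1E 1.41, so an RPKM comparison between genes depends on which length is used.

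Promoter sequence from RefSeq (GRCh38.p14) was at hand for MT2A and MT1X, 2 of the 6 genes, and is shown because the core of the MRE can be read in it directly. The 250 bases before each RefSeq start site are given, 5′ to 3′ on the plus strand, at chr16:56608334-56608583 for MT2A and chr16:56682220-56682469 for MT1X. The deposited tables place the gene starts further upstream, at 56608199 for MT2A and 56682424 for MT1X. The whole MT2A window and the end of the MT1X window thus lie in bases that the tables count as exon. Capitals mark each match to TGCACNC or TGCGCNC, the MRE core, on either strand.

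MT2A: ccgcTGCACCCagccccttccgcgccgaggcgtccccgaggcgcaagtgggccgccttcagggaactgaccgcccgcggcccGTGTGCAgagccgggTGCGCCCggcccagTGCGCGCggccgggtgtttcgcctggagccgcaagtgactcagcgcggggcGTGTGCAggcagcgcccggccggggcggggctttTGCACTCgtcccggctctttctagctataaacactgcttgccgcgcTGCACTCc
MT1X: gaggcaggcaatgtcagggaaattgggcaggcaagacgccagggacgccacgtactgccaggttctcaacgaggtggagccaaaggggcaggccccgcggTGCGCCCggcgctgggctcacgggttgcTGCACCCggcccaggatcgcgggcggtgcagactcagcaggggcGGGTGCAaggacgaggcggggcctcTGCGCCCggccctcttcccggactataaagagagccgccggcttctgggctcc

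The MT2A sequence held 7 matches and the MT1X sequence 4, none of them overlapping. In both, 1 match began close to base -53 on the plus strand (-54 in MT2A and -53 in MT1X) and another lay further upstream on the minus strand (-88 and -78). A TATAAA box began at base -29 in MT2A and at base -30 in MT1X. Of the 35116 promoters in the RefSeq table, 24.8% held at least 1 match to the MRE core in the same window, 0.370% held as many as MT1X and 0.0313% held as many as MT2A. TATAAA was found on either strand in 10.7% of them. Outside the 6 genes, the same window held 8 core matches for MT1H and 3 for MT1B, and each of these genes had at most 2 reads in any library. A link between the number of matches and the level was not tested. A match to these letters is a description of the sequence and not a measured binding site.

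**Figure D1:**
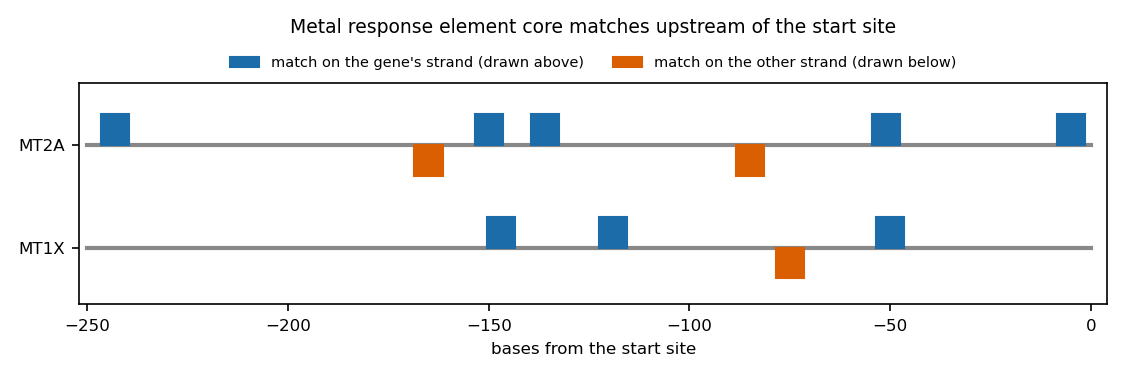
Positions of matches to the metal response element core in the 250 bases before the RefSeq start site of MT2A and MT1X, in bases from the start site. Blue boxes above a line are matches on the strand of the gene and orange boxes below it are matches on the other strand, and MT2A shows 7 boxes where MT1X shows 4.

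MT2A supplied nearly all of the metallothionein reads in both cell lines. It made up 93.9% to 99.5% of the reads counted on metallothionein genes and pseudogenes in a library, and its place among all genes by RPKM was between 48 and 152. With siNC, MT2A was at 597, 512 and 471 RPKM in UM-UC-3 replicates 1 to 3 and at 459, 658 and 662 RPKM in T24 replicates 1 to 3, so the values of the lines overlapped. The means were 527 ± 64.4 and 593 ± 116 RPKM (SD, n = 3 each).

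MT1E, which encodes an MT1 isoform, was the second most abundant member in T24 cells and nearly undetected in UM-UC-3 cells. With siNC it was at 32.1, 26.3 and 37.7 RPKM in T24 replicates 1 to 3 and at 0 in all 3 UM-UC-3 libraries. Over all 9 UM-UC-3 libraries a single one, siACAT1-1 replicate 1, held MT1E reads, and there were 4 of them (0.135 RPKM), while the T24 libraries held 485 to 1441. The 0 reads in the siNC libraries of UM-UC-3 allow up to 0.0313 RPKM, taking 3 reads over the group as the floor. This floor covers counting error only, and only where reads were counted independently of one another. Low counts were mostly even (72.7% to 76.7% in a library), so reads may not be independent and the true limit may be higher.

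MT1X, another MT1 isoform, was the second member in UM-UC-3 cells and was higher there than in T24 cells in every library. With siNC it was at 1.90, 2.25 and 1.77 RPKM in UM-UC-3 replicates 1 to 3 and at 0.377, 0.700 and 0.443 RPKM in T24 replicates 1 to 3. Over all 9 libraries of a line it ranged from 1.42 to 3.58 RPKM in UM-UC-3 cells (72 to 182 reads) and from 0.333 to 0.919 RPKM in T24 cells (16 to 41 reads). The exons of MT1X share 321 bases with those of RP11-343H19.2, an unnamed lncRNA gene on the same strand, and these hold 165 of the 404 bases of the canonical MT1X transcript. The reads counted for RP11-343H19.2 came to 60.9% to 98.4% of those of MT1X in the same library (median 89.5%), so reads of the 2 genes cannot be told apart and the MT1X level carries this limit throughout. No other member shared exon bases with another gene.

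MT1M and MT1F were low in T24 cells and had no read in any of the 9 UM-UC-3 libraries. With siNC, MT1M was at 0.370, 0.301 and 0.530 RPKM in T24 replicates 1 to 3, and MT1F at 0.0615, 0.338 and 0.113 RPKM. Over the 9 T24 libraries MT1M had 7 to 26 reads and MT1F 4 to 20, so that single reads weigh on each value. MT1G was at the floor of detection, with 0 reads in all 9 T24 libraries and 2 reads each in UM-UC-3 siNC replicate 2 and siACAT1-2 replicate 2. These reads are too few to compare the lines.

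**Figure D2:**
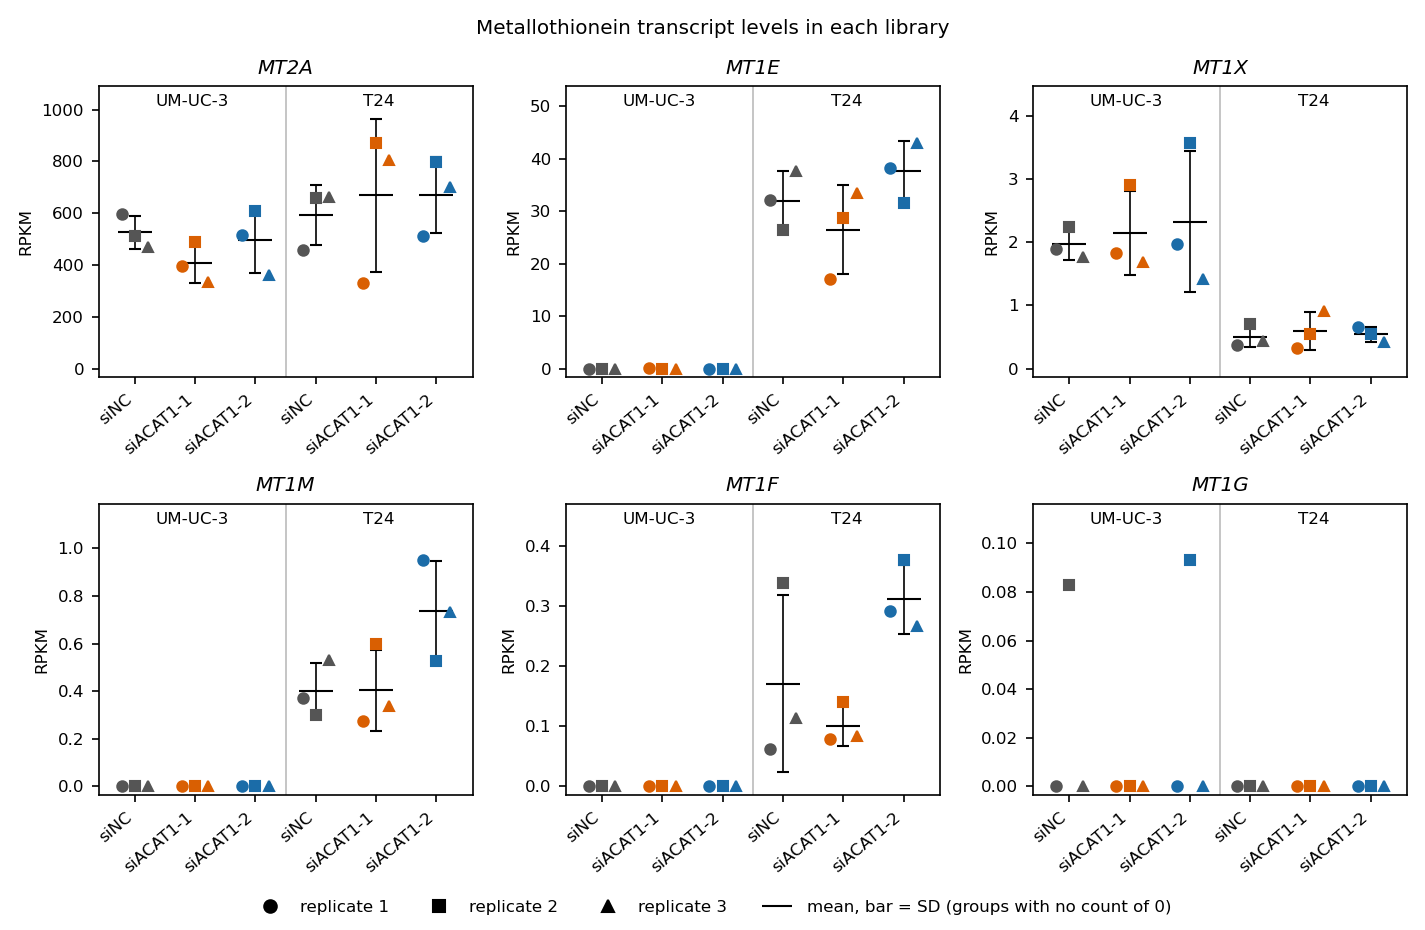
RPKM of the 6 metallothionein genes in each of the 18 libraries, by cell line and siRNA, with a linear axis of its own for each gene. Symbols give the replicate number, horizontal bars the mean and vertical bars the SD of 3 libraries in groups where no library had 0 reads. MT2A lies between 329 and 873 RPKM in both lines, MT1E, MT1M and MT1F are seen in T24, and MT1X is higher in UM-UC-3.

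Between the cell lines with siNC, 4 of the 5 tested members were called at an edgeR adjusted p under 0.05, where 44.3% of all tested genes were called. MT1X was higher in UM-UC-3 cells by 2.02 on the log2 scale (SE 0.41, edgeR adjusted p = 7.9e-04), which is 4.05-fold with a 95% interval of 2.22 to 7.39. MT1E was at least 1025-fold higher in T24 cells than in UM-UC-3 cells, MT1M at least 11.4-fold and MT1F at least 9.39-fold, with edgeR adjusted p of 4.1e-08, 4.5e-04 and 0.0018. These 3 bounds set the reads of the T24 siNC group against the floor of 3 reads over the UM-UC-3 siNC group. The bounds leave out the counting error of the T24 reads and their spread between libraries. MT1F, for example, had 4, 18 and 6 reads in T24 siNC replicates 1 to 3. The bounds also hold only if reads were counted independently, which the mostly even low counts put in doubt, so the true bounds may be lower. The 3 genes passed the filter through T24 reads alone, so their calls add no independent support. All 3 were also called with no filter on low counts. MT2A differed by -0.11 (UM-UC-3 minus T24, log2, SE 0.29, edgeR adjusted p = 0.77), with a 95% interval of -0.72 to 0.49, equal to 0.608-fold to 1.40-fold, so the test did not separate the lines at this precision.

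In levels per length, the siNC libraries of UM-UC-3 cells had the order MT2A, then MT1X, with MT1E, MT1M and MT1F without a read and MT1G with 2 reads in 1 of 3 libraries. In T24 cells the order was MT2A, MT1E, MT1X, MT1M and MT1F, and MT1G had no read. MT1X (0.507 ± 0.171 RPKM, n = 3) and MT1M (0.401 ± 0.117 RPKM) overlapped in T24 siNC libraries, as did MT1M and MT1F (0.171 ± 0.147 RPKM). MT2A and MT1E did not overlap each other or the rest.

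The other 11 metallothionein and metallothionein pseudogene rows (MT1A, MT1B, MT1H, MT1L, MT1JP, MT1DP, MT1CP, MT1XP1, MT1P3, MT2P1 and MT1P1) were at or near the floor. MT2P1, a processed copy of MT2A, had 2 to 14 reads per library where MT2A had 11583 to 34209, and the rest had at most 4 reads in any library. The members share sequence with one another and with these copies. In the GENCODE transcripts, 1.24% (MT1F) to 18.7% (MT1X) of the 50-base words of a member occurred in another gene, and how reads mapping to several genes were counted is not stated in the sources used here. At 100 bases the share was 0 for every member except MT1X, where it was 11.6% and came from the overlapping lncRNA gene.

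ACAT1 knockdown did not shift any metallothionein gene past the test in either cell line. MT2A was at 397, 488 and 335 RPKM in UM-UC-3 siACAT1-1 replicates 1 to 3 and at 514, 609.8 and 361 RPKM in siACAT1-2 replicates 1 to 3. The siACAT1-1 libraries ran from below the siNC range into it, and those of siACAT1-2 spread on both sides of it. In T24 cells MT2A was at 329, 873 and 804 RPKM with siACAT1-1 and at 513, 799.8 and 700.4 RPKM with siACAT1-2, and both groups overlapped siNC. The largest spread within a group was that of T24 siACAT1-1, at 669 ± 296 RPKM (SD, n = 3). In bulk RNA, fewer cells of a kind and less RNA per cell cannot be told apart.

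The log2 fold change of MT2A against siNC in UM-UC-3 cells was -0.37 (SE 0.29) for siACAT1-1 and -0.13 (SE 0.29) for siACAT1-2. In T24 cells it was 0.18 (SE 0.29) and 0.19 (SE 0.29). The edgeR adjusted p values lay between 0.88 and 1. Over the mean of the 4 comparisons the change was -0.03 (SE 0.17), with a 95% interval of -0.40 to 0.34, equal to 0.758-fold to 1.27-fold.

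MT1X gave the same picture at lower depth. Among UM-UC-3 libraries it was at 1.84, 2.90 and 1.69 RPKM for siACAT1-1 and at 1.97, 3.58 and 1.42 RPKM for siACAT1-2, and both groups enclosed the siNC range. In T24 cells it was at 0.333, 0.542 and 0.919 RPKM with siACAT1-1 and at 0.660, 0.541 and 0.426 RPKM with siACAT1-2. All 4 groups overlapped their siNC libraries. On the log2 scale the differences from siNC were 0.12 and 0.20 (UM-UC-3) and 0.26 and 0.14 (T24), with SE of 0.38 to 0.42, and their mean was 0.18 (SE 0.25, edgeR adjusted p = 0.87).

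MT1E, MT1M and MT1F, isoforms of the MT1 group, could be measured in T24 cells alone, and their means were higher with siACAT1-2 than with siACAT1-1 without passing the test. MT1E was at 17.0, 28.8 and 33.5 RPKM with siACAT1-1 and at 38.3, 31.5 and 43.1 RPKM with siACAT1-2, and both groups overlapped siNC. MT1M was at 0.275, 0.598 and 0.337 RPKM with siACAT1-1 and at 0.950, 0.528 and 0.735 RPKM with siACAT1-2. MT1F was at 0.0782, 0.140 and 0.0842 RPKM with siACAT1-1 and at 0.292, 0.376 and 0.267 RPKM with siACAT1-2. The 2 siRNA groups overlapped for MT1M and did not for MT1F, whose siNC libraries ran from below the first group into the second.

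Against siNC, the log2 fold change of MT1E in T24 cells was -0.27 (SE 0.34) with siACAT1-1 and 0.25 (SE 0.34) with siACAT1-2. For MT1M the values were 0.02 (SE 0.55) and 0.91 (SE 0.53), and for MT1F -0.69 (SE 0.68) and 0.91 (SE 0.63). At these depths the 95% interval of MT1F with siACAT1-2 ran from -0.48 to 2.30 on the log2 scale, equal to 0.717-fold to 4.93-fold. Leaving out 1 library moved this fold change from 0.91 to between 0.52 (without T24 siNC replicate 1) and 1.79 (without T24 siNC replicate 2), and that of MT1F with siACAT1-1 to between -1.08 and 0.20 (the same 2 libraries).

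**Figure D3:**
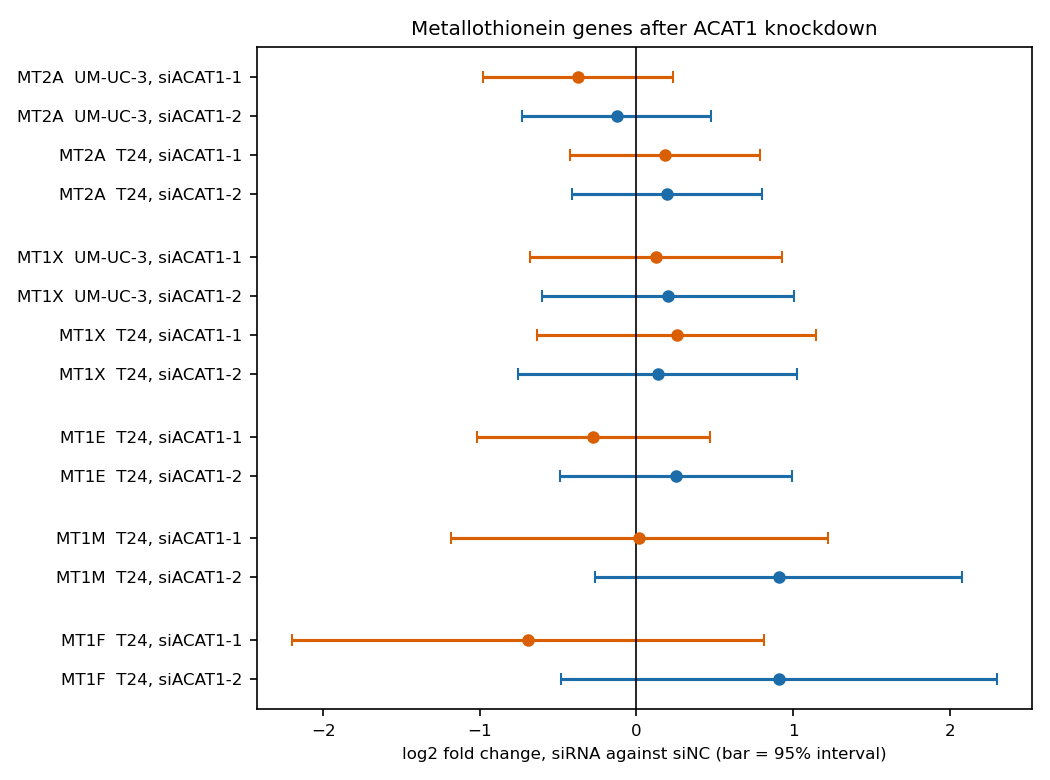
Log2 fold change of each metallothionein gene with each siRNA against siNC of the same cell line, with 95% intervals from the edgeR model of 18 libraries. Orange marks siACAT1-1 and blue siACAT1-2, UM-UC-3 is left out for the 3 genes without reads there in siNC, and every interval crosses 0.

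By edgeR, 0 of the 5 tested members were called in UM-UC-3 cells for siACAT1-1, where 0.00993% of all genes were called, or for siACAT1-2 (0.0546% of all genes). MT1M and MT1F had no read in that line and could not be called there, and MT1E had 4 reads in 1 library. In T24 cells edgeR called 0 of 5 as well, for siACAT1-1 (0.124% of all genes) and for siACAT1-2 (0.268%). The same count of 0 was found for the mean of the 4 comparisons (0.223% of all genes). MT1E, MT1M and MT1F gave no standard error in that mean, so the count there covers MT2A and MT1X. None of the members had an unadjusted p under 0.05 in these 5 tests, and limma called 0 of 5 in each of them. DESeq2 also called 0, but gave no adjusted p for 2 of the 5 members in 4 of these 5 tests, all except siACAT1-1 in UM-UC-3 cells, so those members could not be called. At an unadjusted p under 0.05, DESeq2 had 1 member for siACAT1-1 in the UM-UC-3 line, namely MT1E with its 4 reads, and limma had 2 for siACAT1-2 in the T24 line, MT1M and MT1F. The share of all genes called was so small that a count of 0 among 5 genes does not set the members apart.

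With the replicate number as a block within the cell line, many more genes were called across the table, and still 0 of the 5 members. In UM-UC-3 cells the share of all genes called by edgeR was then 3.06% for siACAT1-1 and 1.36% for siACAT1-2. In T24 cells the shares were 13.9% and 8.48%, and for the mean of the 4 comparisons 12.4%. The limits of MT1E, MT1M and MT1F in UM-UC-3 cells and in the mean applied here as well. In these 5 tests 1 member was under an unadjusted p of 0.05. It was MT2A for siACAT1-1 in the UM-UC-3 line, at a log2 fold change of -0.39 (SE 0.15, edgeR adjusted p = 0.17). Within replicates 1 to 3 the ratio of MT2A in siACAT1-1 to siNC was 0.664, 0.953 and 0.712 there, so all 3 ratios were below 1.

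For siACAT1-2 in T24 cells, 4 members were above siNC in all 3 replicate numbers, although the groups overlapped. The ratios within replicates 1 to 3 were 1.12, 1.22 and 1.06 for MT2A and 1.19, 1.20 and 1.14 for MT1E. For MT1M they were 2.57, 1.75 and 1.39, and for MT1F 4.74, 1.11 and 2.35. None of these 4 had an unadjusted p under 0.05 by edgeR, with the block or without it. Apart from these and MT2A above, the ratios of each member stood on both sides of 1 in each comparison with siNC.

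The knockdown effect on the metallothionein genes was compared directly between the lines. For MT2A the effect in UM-UC-3 cells minus that in T24 cells was -0.44 on the log2 scale (SE 0.35, edgeR adjusted p = 1.00), and with the replicate block it was -0.42 (SE 0.19, edgeR adjusted p = 0.50). For MT1X it was -0.03 (SE 0.48). By edgeR 0 of 5 members were called, where 0% of all genes were called, and 0 with the replicate block, where 0.104% were. MT1E, MT1M and MT1F gave no standard error in either fit, so they could not be called. At an unadjusted p under 0.05 there were 0 members without the block and 1 with it, and DESeq2 and limma called 0.

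The 2 siRNAs were also set against each other. By edgeR 0 of 5 members differed between siACAT1-2 and siACAT1-1 in UM-UC-3 cells, where 0.0496% of all genes were called (8.15% with the block), and 0 of 5 in T24 cells, where 0.968% were called (14.7% with the block). MT1M and MT1F had no read in UM-UC-3 cells and could not be called there. Among T24 libraries MT1F was under an unadjusted p of 0.05 at a log2 difference of 1.60 (SE 0.66, siACAT1-2 minus siACAT1-1, edgeR adjusted p = 0.33). MT1E differed by 0.53 (SE 0.34, edgeR adjusted p = 0.57), and with the replicate block by 0.53 (SE 0.18, edgeR adjusted p = 0.060). With the block MT1F was at 1.67 (SE 0.64, edgeR adjusted p = 0.089). Limma called 0 members in both contrasts, and DESeq2 called 0 of the 3 members to which it gave an adjusted p. In T24 cells MT1E and MT1F were under an unadjusted p of 0.05 with the block, MT1E, MT1M and MT1F by limma and none by DESeq2. DESeq2 had MT1E under it in UM-UC-3 cells, with its 4 reads. None of these differences passed the threshold, and MT1F rested on 4 to 20 reads per library.

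MT2A in both lines and MT1X in UM-UC-3 cells varied more with the replicate number than with the siRNA. MT1F, MT1M and MT1E in T24 cells had the larger share with the siRNA, although none of their siRNA comparisons was called. In T24 cells the 3 libraries of replicate 1 held MT2A at 329 to 513 RPKM, and the 6 libraries of replicates 2 and 3 at 658 to 873 RPKM, whatever the siRNA. In UM-UC-3 cells the replicate 3 libraries held MT2A at 335 to 471 RPKM and those of replicate 2 at 488 to 609.8 RPKM. MT1X was highest in replicate 2 of UM-UC-3 cells, at 2.25 to 3.58 RPKM, and at 1.42 to 1.97 RPKM in the other two replicates.

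Of the squared deviations of MT2A on the log2 scale, 69.8% in T24 cells and 54.4% in UM-UC-3 cells went with the replicate number, and 4.13% and 26.9% with the siRNA. For MT1X in UM-UC-3 cells the shares were 81.0% and 1.11%. In T24 cells MT1X had only 9.15% with the replicate number and 3.36% with the siRNA, and 87.5% went with neither. MT1F, MT1M and MT1E in T24 cells had 59.7%, 53.5% and 37.2% with the siRNA and 25.2%, 2.31% and 27.3% with the replicate number. For MT1E 35.5% went with neither. These shares describe 9 libraries per line, and each factor takes up some share even where it has no effect.

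By edgeR, MT2A was called for the replicate number in T24 cells (adjusted p = 0.0020), 1 of 5 members where 43.9% of all tested genes were called. In UM-UC-3 cells MT2A (adjusted p = 0.035) and MT1X (adjusted p = 0.041) were called, 2 of 5 members where 24.6% of all genes were. Those 2 were the members with reads in every UM-UC-3 library, since MT1M and MT1F had none and MT1E 4 reads in 1 library. The UM-UC-3 calls rested on single libraries, since both were lost without replicate 3 of any of the 3 groups and without replicate 2 of siACAT1-1 or siACAT1-2, and 1 was lost without replicate 1 of any group. The T24 count rose to 2 without T24 siACAT1-1 replicate 2, and the UM-UC-3 count to 3 without T24 siACAT1-1 replicate 1. With such shares of all genes called, and so few members with reads in UM-UC-3 cells, the counts do not set the metallothioneins apart from the table.

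**Figure D4:**
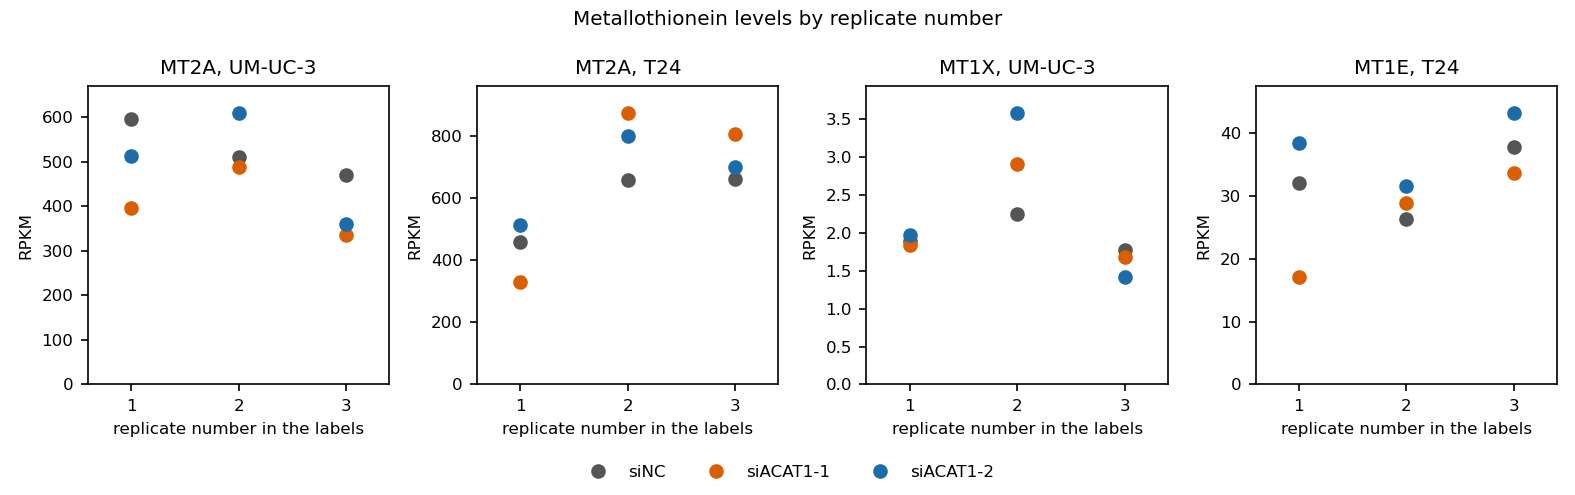
RPKM by replicate number in the labels for MT2A in both cell lines, MT1X in UM-UC-3 and MT1E in T24, on linear axes from 0. Each point is a library and colours give the siRNA. The 3 replicate 1 libraries of T24 lie below the other 6 for MT2A, and the 3 replicate 2 libraries of UM-UC-3 lie above the other 6 for MT1X.

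Other genes moved with the replicate number in the same libraries. In T24 replicate 2, DUSP1, an immediate early phosphatase gene, was at 154 to 163 RPKM in all 3 groups against 11.1 to 36.4 RPKM in the other 6 libraries. MTF1 was at 2.09 to 2.40 RPKM there against 0.806 to 1.39 RPKM. The keratins KRT7, KRT8, KRT18 and KRT19 were lower in T24 replicate 2 than in the replicate 1 and 3 libraries of the same siRNA, for instance KRT8 at 94.7 to 143 RPKM against 288 to 435 RPKM. MT2A was high in replicate 3 as well, where DUSP1, MTF1 and the keratins were nearer to replicate 1 than to replicate 2. The part of these differences in the MT2A result was not tested.

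Among 9 libraries, the members moved together to different degrees. After subtracting the mean of the cell line, MT2A and MT1X had r = 0.71 over the 9 UM-UC-3 libraries and 0.55 over the 9 T24 libraries. In T24 cells MT2A had r = 0.49 with MT1E, 0.34 with MT1F and 0.29 with MT1M, and MT1E and MT1M had r = 0.73. These are descriptions over libraries that share groups and replicate numbers.

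Genes of zinc handling were read beside the members. The list held MTF1, the SLC30A genes, which carry zinc out of the cytosol, and the SLC39A genes, which carry it in (25 genes, 22 in the table, 18 tested). Without the block, 0 of 18 were called by edgeR in any comparison with siNC. With the block, SLC39A6, a transporter of the plasma membrane, rose in T24 cells by 0.45 with siACAT1-1 (SE 0.10, edgeR adjusted p = 0.0050) and by 0.55 with siACAT1-2 (SE 0.10, edgeR adjusted p = 0.0018). With siACAT1-1 SLC30A7 (0.69) and SLC39A9 (0.37) rose and SLC39A3 (-0.74) fell as well. None of the 18 was called against siNC in UM-UC-3 cells, and SLC39A6 and SLC30A7 rose in the mean of the 4 comparisons (0.34 and 0.35). These calls stand beside 13.9% and 8.48% of all genes for the siRNAs in T24 cells and 12.4% for the mean.

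The zinc genes were also compared between the siRNAs with the block, as siACAT1-2 minus siACAT1-1. In T24 cells 7 of 18 were called, 3 higher and 4 lower, beside 14.7% of all genes, and in UM-UC-3 cells 3 of 18, beside 8.15%. SLC30A7 in T24 cells was among the 7 (-0.61, edgeR adjusted p = 0.025), at 1.33 ± 0.174 RPKM with siACAT1-1, 0.884 ± 0.235 RPKM with siACAT1-2 and 0.865 ± 0.344 RPKM with siNC (SD, n = 3). Against siNC its log2 fold change with the block was 0.57 and 0.69 for siACAT1-1 and 0.07 and 0.08 for siACAT1-2 (UM-UC-3 and T24). SLC39A14, SLC39A8 and SLC39A1 were called in both lines, SLC39A14 lower and the other two higher with siACAT1-2. Without the block 0 of 18 were called in either line. The median over the list was 0.01 in the mean of the 4 comparisons, beside -0.0010 over all genes.

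MTF1, the zinc sensor that drives metallothionein genes, was called with neither siRNA. In UM-UC-3 cells it was at 1.27, 1.45 and 1.50 RPKM with siNC and at 2.52, 1.32 and 2.47 RPKM with siACAT1-1, a log2 fold change of 0.57 (SE 0.32, edgeR adjusted p = 0.95), and of 0.53 with the block (SE 0.16, edgeR adjusted p = 0.082). SLC30A1, a zinc exporter that is itself an MTF1 target, was called for the replicate number in both lines. In UM-UC-3 cells it was lowest in replicate 2, at 0.601 to 0.663 RPKM, where MT1X was highest. In T24 cells it was highest in replicate 2, at a mean of 1.82 RPKM against 1.14 and 1.28 RPKM in replicates 1 and 3, where MT2A was also highest.

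Between the cell lines with siNC, 6 of the 18 zinc genes were called by edgeR, 1 higher and 5 lower in UM-UC-3 cells, beside the 44.3% of all genes. SLC39A4 (log2 -2.82), SLC39A8 (-2.25), SLC39A1 (-0.47), SLC30A4 (-5.16) and SLC30A5 (-0.45) were lower in UM-UC-3 cells, and SLC39A14 was higher (0.86, edgeR adjusted p = 0.0497). MTF1 differed by -0.01 (SE 0.32). The median of the list was -0.21, beside 0.03 over all genes.

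Of 12 copper-handling genes, 0 were called against siNC without the block. With the block the copper pump ATP7A rose with siACAT1-1 in T24 cells (0.62, edgeR adjusted p = 0.033) and the chaperone ATOX1 with siACAT1-2 in T24 cells (0.46, edgeR adjusted p = 0.041), beside 13.9% and 8.48% of all genes, and 0 of 12 were called in UM-UC-3 cells (3.06% and 1.36% of all genes). Between the lines 4 were called, where 44.3% of all genes were, the transporters SLC31A1 (-2.30) and SLC31A2 (-1.49) lower in UM-UC-3 cells and the chaperones COX17 (1.26) and ATOX1 (0.68) higher.

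Of 10 genes known to respond to glucocorticoids or to carry the response, 9 were tested and 0 were called against siNC without the block. With the block DUSP1 (1.35), ERRFI1 (1.09) and SGK1 (0.85) rose in UM-UC-3 cells for siACAT1-1, beside 3.06% of all genes. In T24 cells KLF9 (0.86) rose for siACAT1-1 and SGK1 (0.76) for siACAT1-2, beside 13.9% and 8.48%. DUSP1 rose in the mean of the 4 comparisons (0.49, edgeR adjusted p = 0.040), 1 of 9 genes beside 12.4% of all genes. MT2A did not pass the test in that mean, and a difference between DUSP1 and MT2A was not tested. That mean covered unlike values, since DUSP1 in T24 cells was lower with siACAT1-1 than with siNC in all 3 replicate numbers (12.9 against 19.0, 156 against 163 and 11.1 against 18.4 RPKM), a log2 fold change of -0.39 that did not pass the test (SE 0.24, edgeR adjusted p = 0.32). Between the siRNAs, with the block, DUSP1 was called in both lines and in opposite directions (siACAT1-2 minus siACAT1-1, -0.84 for UM-UC-3 and 0.86 for T24). SGK1 and ERRFI1 were likewise called lower for siACAT1-2 among UM-UC-3 libraries, as was PER1 among T24 libraries, beside the 8.15% and 14.7% of all genes. Between the lines CEBPD (-3.15) was lower in UM-UC-3 cells, and the receptor gene NR3C1 (0.96) and SGK1 (1.43) were higher, 3 of 9 beside 44.3% of all genes.

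The 9 genes flanking the cluster on chromosome 16 were read for a change shared with the neighbourhood. Of the 7 tested, 0 were called against siNC with or without the block, where the block called 1.36% to 13.9% of all genes. Between the lines GNAO1 was higher in UM-UC-3 cells (4.73) and OGFOD1 lower (-0.53), 2 of 7 beside 44.3% of all genes, and the other 5 tested were not called. For the replicate number, 7 of 18 zinc genes were called in each line, 5 and 7 of 12 copper genes, 4 and 7 of 9 glucocorticoid genes and 2 and 3 of 7 flanking genes (UM-UC-3 and T24, edgeR), beside the 24.6% and 43.9% of all genes given above.

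The genes whose profile was most like that of the metallothioneins were SNCG (r = 0.86), PTGES2 (0.84), ADPRHL1 (0.82), SLC16A13 (0.81), RAC1 (0.80), CHEK2 (0.80), CHST7 (0.79) and AC022154.7 (0.79). The measure was Pearson's r over the 18 libraries between the depth-scaled log2 counts of a gene and the mean of the 5 tested members, each after subtracting the mean of its cell line. The 5 members weighed equally, although MT1M and MT1F had no read in UM-UC-3 cells and at most 26 reads in a T24 library. MT1E had reads in 1 UM-UC-3 library only. Low counts thus enter the profile, which need not follow MT2A. With group means subtracted in place of line means, 2 of the 8 highest genes were shared, SLC16A13 (0.91) and SNCG (0.80). The libraries share groups and replicate numbers, and these r values are the highest among the genes tested.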

How the data were processed

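Stranded mRNA libraries with molecular identifiers were made by the authors from UM-UC-3 and T24 cells. Per the labels and the study's methods, reads were filtered with Trimmomatic 0.36, mapped to GRCh38 with STAR 2.5.3 and counted on gene exons with featureCounts (Subread 1.5.1). The deposited counts are whole numbers per gene with no scaling. The deposited RPKM values equal those counts divided by the listed exon length in kilobases and by the counted reads of the library. Which annotation was counted, with which strand setting, and how shared reads and identifiers were treated are not given in the sources used here. Among counts of 1 to 10, 72.7% to 76.7% were even in a library.

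The test was edgeR 4.0.16 under R 4.3.3 (TMM, filterByExpr by group, quasi-likelihood F test) in a model of all 18 libraries with 6 groups, and Benjamini-Hochberg adjustment ran over the 20144 genes tested. DESeq2 1.42.0 and limma 3.58.1 (log2 of RPKM + 0.5) were alternatives. The script was tested on simulated data for the fit without the block, in comparisons with siNC only. The block, the replicate number test and the contrast between the lines were not part of that simulation. The replicate numbers pair libraries within a line: deviations from the group means correlated in every same-number pair (r 0.115 to 0.576 in UM-UC-3, 0.356 to 0.686 in T24), against -0.545 to 0.269 and -0.567 to 0.210 for different numbers within those lines, so the ranges overlap in UM-UC-3, and -0.327 to 0.211 for the same number across lines. The block is the number within the line. All 18 pairs of libraries within a group differed beyond counting noise (chi-square per degree of freedom 13.0 to 194). The named genes are all 6 members, ACAT1, MTF1, up to 6 called genes per list by smallest p and the 8 genes of highest likeness, and SLC30A1, DUSP1 and the keratins were named for the replicate number after their values were seen. The members and lists were chosen with earlier results of these data known. MT3, MT4, MT1HL1 and MT1IP were not analysed here.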

Additional observations from a re-analysis of the deposited data

How the results depend on the processing

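Alternatives changed no call of a member in any comparison with siNC, between the lines, between the effects of the lines or between the siRNAs: DESeq2 size factors, no filter on low counts, DESeq2 (with no adjusted p for 2 of 5 members in 6 of the comparisons), limma, the replicate block (within lines) and leaving out each library left 0 members called in each comparison involving a knockdown and 4 between the lines with siNC. With the replicate block, for example, MT2A in UM-UC-3 cells was at a log2 fold change of -0.39 for siACAT1-1 and -0.16 for siACAT1-2, and the block changed no member's call. Of the 4 members called between the lines, MT1E, MT1M and MT1F passed the filter through T24 alone. In UM-UC-3 cells MT1M and MT1F had no read and MT1E had 4 reads in 1 library, which limits the counts of 0 there. For the replicate number, no filter gave 2 called members in T24 cells (MT2A and MT1E), and leaving out 1 library gave 1 to 2 in T24 cells (2 without siACAT1-1 replicate 2) and 0 to 3 in UM-UC-3 cells (3 without T24 siACAT1-1 replicate 1). The cause was not tested.

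Fold changes that did not pass the test turned sign in places. MT1M with siACAT1-1 in T24 cells was -0.0039 by limma. Leaving out 1 library gave, on the log2 scale, for UM-UC-3 cells, -0.18 to 0.28 in MT1X for siACAT1-1, -0.27 to 0.50 in MT1X for siACAT1-2 and -0.32 to 0.095 in MT2A for siACAT1-2. In T24 cells it gave -0.19 to 0.51 for MT1X with siACAT1-1, -0.088 to 0.37 for MT1X with siACAT1-2, -0.034 to 0.48 for MT2A with siACAT1-1, -1.08 to 0.20 for MT1F with siACAT1-1 and -0.36 to 0.22 for MT1M with siACAT1-1. MT1F with siACAT1-2 in T24 cells kept its sign, at 0.52 to 1.79. Of the genes most like the members, 2 of 8 were shared when group means were subtracted. Depth limits MT1M and MT1F most, with 26 reads or fewer in any library.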
